A study of Homo sapiens with 45 samples.

Results

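The comparison sets the chromatin contacts of HNES1 cells treated with UNC1999 against those of cells given the solvent DMSO. HNES1 is a human embryonic stem cell line, and UNC1999 inhibits EZH1 and EZH2, the catalytic subunits of Polycomb repressive complex 2 (PRC2). The members are the 30 libraries of the 2 conditions, out of 45 in the series, each condition being deposited as 1 pooled profile. They give 152688 cis pairs (both fragments on 1 chromosome) of the 434524 pairs listed. The pairs were grouped by the position of the captured fragment (the bait) in fixed bins of 500 kb. Of 4066 bins with a cis pair, 2084 held at least 20 and were used, with 136137 of the cis pairs.

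All cells carried the same genotype and were moved from naive culture into N2B27 medium with XAV939. UNC1999 at 1 µM, UNC6852 at 2.5 µM (a degrader of the PRC2 subunit EED) or DMSO was added 24 h before day 0 and kept until harvest on day 5. Each condition comprised 15 libraries from 3 biological replicates, with 4 libraries a replicate in batch 1 and 1 in batch 2. The scores are pooled over these libraries, so no difference given here has an SD or a test, and the spread between replicates is unknown. One line stands behind every profile. The files hold no measurement of H3K27 methylation or of any protein, so the effect of the inhibitor on PRC2 itself was not analysed here.

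PRC2 methylates lysine 27 of histone H3, and in mammals it is found mainly at CpG-rich promoters of silent developmental genes and at poised enhancers, regulatory elements held ready for later use in differentiation. Regions under Polycomb can meet one another over long distances in the nucleus. Poised-enhancer capture Hi-C ligates DNA ends that lie together in fixed nuclei after digestion with DpnII and enriches the fragments that hold such elements. Each value is a CHiCAGO score, which measures how far the reads joining a pair of fragments exceed a background model. A score of 5 or more is termed a call here. Scores were transformed with asinh, on which a score of 5 is 2.31, and a difference is UNC1999 minus DMSO on that scale, less the median over all cis pairs, which was 0. A bin was counted as lower or higher at a mean difference of 0.5 or more. A pair was counted at 1 or more.

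The promoters of 5 genes are shown for their place in the contacts: GREB1L and GATA6 are the ends of the group of pairs that made the highest bin, OTP is the bait-rich homeobox gene whose bin was higher on most baits, and HTR1E and DNMT3A lie in bins among the 12 lowest. Sequences are from RefSeq (GRCh38.p14), 250 bases before to 50 after the gene start, 5′ to 3′ on the gene's strand, with CG dinucleotides in capitals (CG reads the same on both strands).
GREB1L: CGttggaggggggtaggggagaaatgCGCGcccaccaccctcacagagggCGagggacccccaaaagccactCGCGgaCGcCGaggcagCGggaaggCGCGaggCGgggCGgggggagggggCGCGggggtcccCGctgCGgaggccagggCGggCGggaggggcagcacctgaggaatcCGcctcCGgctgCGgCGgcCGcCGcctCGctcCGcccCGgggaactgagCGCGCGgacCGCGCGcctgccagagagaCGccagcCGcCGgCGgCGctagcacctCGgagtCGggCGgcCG
GATA6: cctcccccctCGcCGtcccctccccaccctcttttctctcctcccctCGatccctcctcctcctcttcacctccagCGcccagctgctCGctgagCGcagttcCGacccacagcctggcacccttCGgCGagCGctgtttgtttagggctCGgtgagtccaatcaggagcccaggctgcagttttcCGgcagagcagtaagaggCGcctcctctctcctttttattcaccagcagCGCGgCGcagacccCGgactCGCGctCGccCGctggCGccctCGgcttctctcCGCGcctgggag
OTP: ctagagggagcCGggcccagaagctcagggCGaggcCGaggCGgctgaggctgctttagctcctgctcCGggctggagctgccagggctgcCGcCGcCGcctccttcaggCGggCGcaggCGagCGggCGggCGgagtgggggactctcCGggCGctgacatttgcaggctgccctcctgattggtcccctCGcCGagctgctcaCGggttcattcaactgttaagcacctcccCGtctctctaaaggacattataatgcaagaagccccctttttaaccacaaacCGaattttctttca
HTR1E: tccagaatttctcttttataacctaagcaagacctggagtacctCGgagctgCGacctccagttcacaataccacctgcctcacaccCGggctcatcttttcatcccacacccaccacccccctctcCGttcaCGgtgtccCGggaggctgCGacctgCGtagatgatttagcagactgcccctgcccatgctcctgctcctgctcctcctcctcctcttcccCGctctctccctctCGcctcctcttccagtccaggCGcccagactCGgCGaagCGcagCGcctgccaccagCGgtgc
DNMT3A: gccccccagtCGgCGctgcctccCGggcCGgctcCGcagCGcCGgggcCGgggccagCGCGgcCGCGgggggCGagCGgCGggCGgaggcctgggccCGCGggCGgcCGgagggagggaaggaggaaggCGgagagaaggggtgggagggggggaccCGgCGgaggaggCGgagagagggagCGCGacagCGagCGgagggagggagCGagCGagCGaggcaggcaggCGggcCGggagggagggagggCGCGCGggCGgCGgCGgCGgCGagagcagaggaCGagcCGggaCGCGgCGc
Of 35116 such promoters of 300 bases, 96.0% hold at least 1 CG, and the median number is 14 (quartiles 4 and 28). GREB1L (chr18:21241982-21242281, + strand) holds 43, a number reached by 4.98% of promoters, and DNMT3A (chr2:25341876-25342175, - strand, 1 of 6 entries of that gene) holds 46, reached by 2.89%. GATA6 (chr18:22169339-22169638, + strand) holds 25, OTP (chr5:77638664-77638963, - strand) 21 and HTR1E (chr6:86937278-86937577, + strand) 16. Captured fragments overlapped 4 of these promoters, whereas the GATA6 promoter lay in a fragment that was not captured. The captured fragment at the HTR1E promoter averaged 2.68 in DMSO and 1.13 in UNC1999 over 5 pairs, and the one at DNMT3A averaged 1.87 and 0.18 over 3 pairs. The OTP promoter fragment averaged 2.30 and 2.27 over 30 pairs. That of GREB1L averaged 2.17 and 2.36 over 11 pairs.

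Across the genome the cis contacts of UNC1999-treated cells matched those of DMSO in mean level (mean asinh score 1.77 in both), and pairs and bins that were higher and lower were close to equal in number. The bins had a median difference of 0.0035 (SD over bins 0.222), from -1.15 to 0.90. There were 40 lower bins (1.92% of those measured) and 42 higher bins (2.02%). In UNC6852, set against the same DMSO profile, 22 bins were lower (1.06%) and 43 higher (2.06%). The bins nearest to the limits stood at -0.502 inside and -0.499 outside on the lower side and at 0.501 and 0.499 on the higher side. Of single cis pairs, 28488 were lower by 1 or more (18.7%) and 28378 higher (18.6%). Of the 64730 calls of DMSO, 18940 (29.3%) were also calls of UNC1999, which is 29.3% of its 64544. Those 64544 calls were made among 152688 listed cis pairs. A pair is listed through a call in at least 1 of the 3 profiles. Every call of DMSO and of UNC1999 is thus listed, and the listing does not alter this share. A call rests on a score limit, and the spread of scores between replicates is unknown. The shared count therefore does not measure contacts lost or gained.

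The size of a bin's difference went with the number of pairs behind it. The SD over bins was 0.304 among the 527 bins with 20 to 29 pairs, 0.223 among 612 bins with 30 to 49, 0.173 among 650 bins with 50 to 99 and 0.113 among the 295 bins with 100 or more, where 0 bins passed 0.5 in either direction. UNC6852 minus DMSO had SDs of 0.292, 0.232, 0.179 and 0.120 in the same classes. The lower bins had a median of 25 pairs and the higher bins 24, against 45 over all bins.

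**Figure D1:**
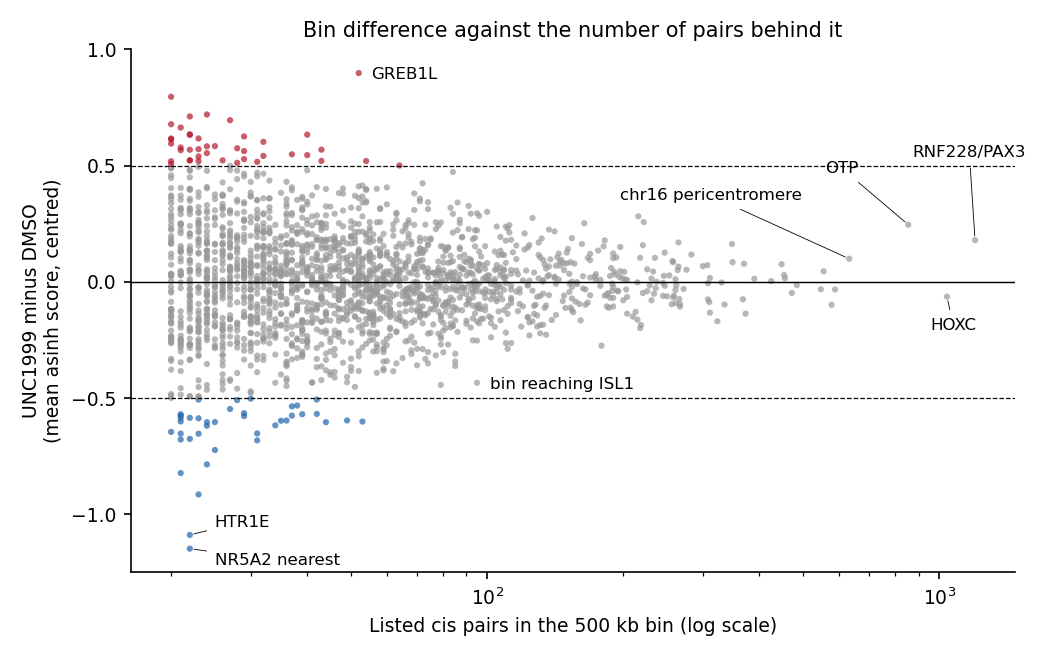
Each point is 1 of 2084 bins of 500 kb, with the number of listed cis pairs on a log axis and the mean difference UNC1999 minus DMSO (asinh score, centred) on the y axis; dashed lines mark 0.5 in both directions. The bins spread widely at 20 to 50 pairs and close in on 0 with more pairs, while OTP and RNF228/PAX3 lie above 0 at 854 and 1200 pairs.

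To see how far a bin's difference was shared by its own fragments, the baits of each bin were taken alternately along the chromosome into odd and even sets, a step added after the data were seen. Both sets come from the same libraries and depth. Over the 1681 bins with at least 10 pairs in each set, Pearson's r was 0.013 and 48.8% of bins had the same sign in both. With 100 or more pairs in the bin r was 0.023 (295 bins, 48.1% with the same sign), with 150 or more -0.012 (148 bins, 71 with the same sign), with 200 or more 0.15 (83 bins, 44 with the same sign), and with 300 or more it was 0.32 (30 bins, 19 with the same sign). Adjoining bins had an r of 0.063 over 1010 pairs of bins. Bins with opposite signs in their alternate baits were thus as common as bins with the same sign, and the loci below are described with that limit.

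**Figure D2:**
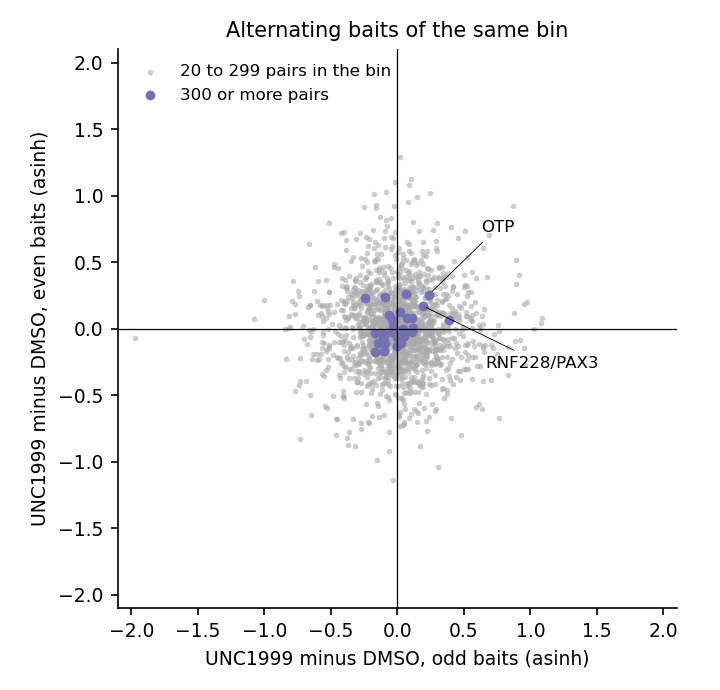
Difference UNC1999 minus DMSO (asinh score) over the odd baits (x) and even baits (y) of the same bin, 1681 bins with at least 10 pairs in each set; purple points are the 30 bins with 300 or more pairs. The cloud shows no common slope (r = 0.013), and OTP and RNF228/PAX3 lie above 0 on both axes.

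Single pairs spread more widely at greater distance between their fragments, and the cause of that was not tested. Pairs under 20 kb had an SD of 0.430 over 1178 pairs, those of 100 to 500 kb 1.07 over 98451, and those beyond 2 Mb 2.09 over 11261. Pairs lower by 1 or more made up 1.44% under 20 kb, 16.2% from 100 to 500 kb and 31.1% beyond 2 Mb, and higher pairs made up 1.27%, 15.8% and 32.3%. Mean differences in these classes were -0.05, -0.0039 and 0.029. Very large changes were mostly calls of 1 profile facing a score of 0 in the other: 12315 pairs fell by 2 or more, 75.7% of them to 0, and 12255 rose by 2 or more, 75.5% of them from 0. A pair is listed if it reached 5 in any of the 3 profiles, so such pairs enter the table through the profile in which they are high.

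The bin with the largest rise lay at GREB1L (chr18:21000001-21500000), a gene linked to kidney development, and the rise was made of contacts with the region of GATA6, a transcription factor of endoderm and heart. Its 52 pairs from 4 baits averaged 1.47 in DMSO, 2.37 in UNC1999 and 1.53 in UNC6852. Calls numbered 14 in DMSO, 37 in UNC1999 and 9 in UNC6852, and the difference was 0.90. Of these pairs, 32 ran from the 4 baits to other ends within 200 kb of an end of GATA6, over 772 to 965 kb. Nearly all of the 32 came from neighbouring baits between chr18:21385998 and chr18:21387790. These met many of the same other ends, so the pairs are not separate observations. Of the 32, 31 were higher in UNC1999 and 22 of them by 1 or more. They averaged 1.03 in DMSO, 2.56 in UNC1999 and 1.31 in UNC6852, with 3, 26 and 5 calls. The other 20 pairs of the bin differed by -0.10. Over all cis pairs, 18.6% were higher by 1 or more. The bin was ranked by this difference, and the window was set after these values were seen. With 26 calls in UNC1999 against 3 and 5, most of the 32 pairs are listed through UNC1999. Their rise thus partly follows from the listing.

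Single contacts of this group are given as examples. The bait at chr18:21385998-21386526, inside GREB1L, met a fragment inside GATA6 (chr18:22172712-22176268) with a score of 0 in DMSO, 10.8 in UNC1999 and 1.95 in UNC6852. The bait at chr18:21386743-21387544 met the fragment with the GATA6 promoter printed above (chr18:22165281-22170774) with 1.34, 6.61 and 3.91. Its pair with chr18:22188319-22193367 scored 3.02, 15.5 and 3.84. Its pair with chr18:22209526-22215164 was a call in DMSO already and scored 5.11, 12.3 and 1.66. The 1 lower pair, from the bait at chr18:21387598-21387790 to chr18:22183248-22188318, scored 6.35, 2.66 and 0. By bait, the 3 fragments inside GREB1L differed by 1.06 (18 pairs), 1.37 (15 pairs) and 0.63 (8 pairs), and the promoter fragment by 0.19 (11 pairs).

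The contact was also read from its other side, through captured fragments near GATA6 that belong to another bin (chr18:22000001-22500000). That bin had a difference of 0.26 over 55 pairs. Its 13 pairs to other ends that touch the GREB1L gene, from 4 baits, averaged 1.29 in DMSO, 1.97 in UNC1999 and 1.82 in UNC6852, with 2, 9 and 6 calls. Of these, 9 were higher in UNC1999, 2 were lower and 2 scored 0 in both DMSO and UNC1999. The larger of both falls was a pair with a fragment near the GREB1L start (chr18:21244120-21249187), which scored 8.99 in DMSO, 0 in UNC1999 and 0.47 in UNC6852. The bait at chr18:22176269-22178024 met chr18:21393011-21398333 with scores of 4.09 in DMSO, 12.8 in UNC1999 and 10.3 in UNC6852, and met chr18:21398334-21403740 with 6.01, 5.46 and 2.95. The remaining 42 pairs of the bin differed by 0.13. On this side UNC6852 lay between DMSO and UNC1999, and from the GREB1L side it lay near DMSO. The doses differ and no strength is compared. Both sides come from the same pooled libraries, and this side was read after the rise at GREB1L was seen. With 9 of the 13 pairs called in UNC1999 against 2 in DMSO, their rise partly follows from the listing. It is no separate support.

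**Figure D3:**
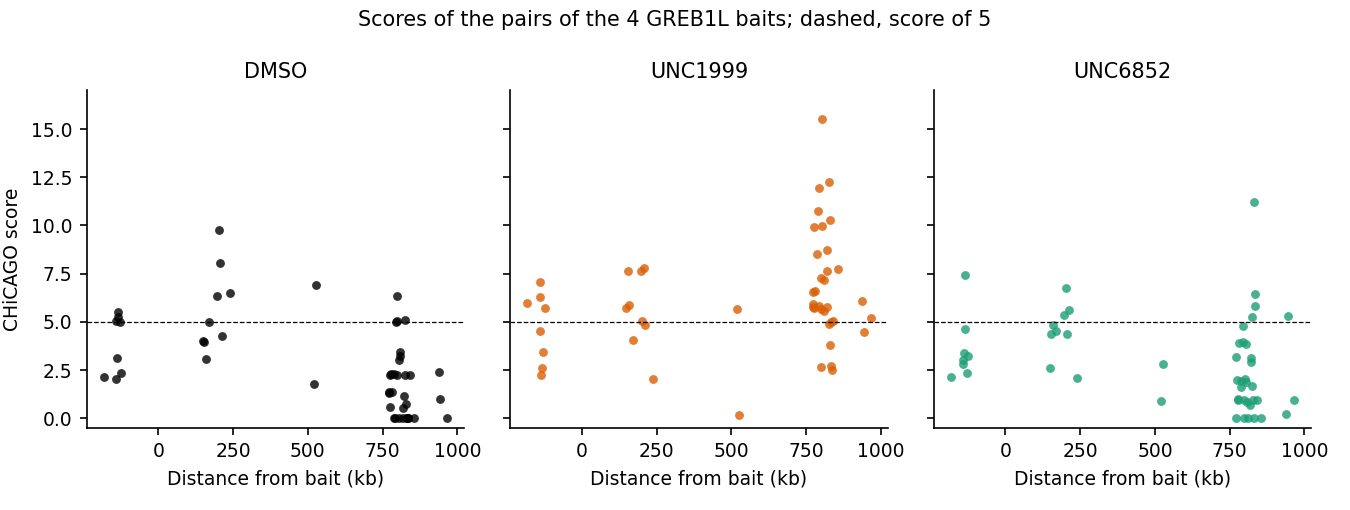
CHiCAGO scores (y) of the pairs of the 4 GREB1L baits within 1.1 Mb, by distance of the other end from its bait (x, kb), in the DMSO, UNC1999 and UNC6852 profiles; the dashed line marks a score of 5. The group at 772 to 965 kb, near GATA6, has 3 calls in DMSO, 26 in UNC1999 and 5 in UNC6852, while the nearer pairs stay at similar heights.

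The bins with most pairs, read whatever their difference, included 2 loci of homeobox genes that were higher by small amounts on both bait sets. OTP, a homeobox gene of hypothalamic neurons (chr5:77500001-78000000), had 854 pairs from 45 baits. They averaged 2.08 in DMSO, 2.32 in UNC1999 and 2.21 in UNC6852, with 397, 546 and 457 calls. The difference of 0.25 was 0.24 over odd and 0.26 over even baits, with 38 baits above 0 and 6 below. The pairs strongest on average over DMSO and UNC1999, which is what strongest means here and below, joined fragments near OTP with fragments whose nearest gene is TBCA. A pair over 195 kb scored 17.7 in DMSO, 21.6 in UNC1999 and 21.3 in UNC6852, and a pair over 213 kb scored 19.04, 18.7 and 18.1. Nearly all of its pairs were of 100 to 500 kb, which averaged 2.12 in DMSO and 2.36 in UNC1999 (817 pairs).

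RNF228 and its neighbour PAX3, the paired-box regulator of neural crest and muscle (chr2:222000001-222500000), had the most pairs of any bin, 1200 from 50 baits. Scores averaged 2.11 in DMSO, 2.29 in UNC1999 and 2.29 in UNC6852, with 592, 730 and 750 calls. The difference of 0.18 was 0.19 over odd and 0.17 over even baits, and 34 baits were above 0 and 15 below. The strongest pair, from the end of RNF228 over 267 kb, scored 20.9, 30.3 and 22.9 in DMSO, UNC1999 and UNC6852. A pair from inside PAX3 over 207 kb went from 0 to 10.4, with 5.34 in UNC6852. Pairs of 0.5 to 2 Mb differed by -0.017 (76 pairs).

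The HOX clusters, the best known Polycomb targets, held 5 of the 8 bins with most pairs and differed little. The HOXC bin (chr12:54000001-54500000, 1040 pairs) averaged 2.01 in DMSO, 1.95 in UNC1999 and 2.01 in UNC6852, a difference of -0.064. Its neighbour with HOXC13 (chr12:53500001-54000000, 578 pairs) differed by -0.099. The HOXD bin (chr2:176000001-176500000, 588 pairs) differed by -0.033, and the HOXB bins by 0.045 (555 pairs) and, on the side of SKAP1, by -0.032 (547 pairs). All 5 lay within 0.1 of 0. Their strongest contacts went both ways: HOXC13 over 177 kb scored 17.4 in DMSO, 21.6 in UNC1999 and 20.8 in UNC6852, and HOXD8 over 513 kb scored 25.6, 18.5 and 27.8. A bait near HOXC9 met a fragment 205 kb away with 35.6, 31.4 and 34.5.

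The eighth of these bins lay beside the centromere of chromosome 16 (chr16:46000001-46500000), with no gene end in most of its 632 pairs and a median distance of 11470 kb. It averaged 2.01 in DMSO, 2.11 in UNC1999 and 2.57 in UNC6852. A single bait gave 300 of the pairs. The strongest pair, of 2 captured fragments, scored 752 in DMSO, 643 in UNC1999 and 28.9 in UNC6852.

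Bins with 100 or more pairs that lay farthest from 0 were picked after their values were seen. The highest were those of DBX1, a homeobox gene of spinal interneurons (0.30, 100 pairs), NR2F2, a nuclear receptor of venous and mesenchymal cells (0.28, 216 pairs), DGKG with ETV5 (0.28, 126 pairs) and SOX14 (0.26, 222 pairs). The lowest were CFAP77 (-0.29, 111 pairs), TACC1 (-0.27, 179 pairs), LOXL3 (-0.26, 110 pairs), RASD1 (-0.26, 113 pairs) and MEIS2, a TALE homeobox gene (-0.23, 124 pairs). LOXL3 stood at -0.016 over odd and -0.49 over even baits, and RASD1 at -0.39 and 0.0012. The bins of CFAP77, TACC1 and MEIS2 were below 0 on both bait sets. Of the 139 bins of 100 or more pairs with a gene of the lists below, 76 were above 0 (median 0.011), and of 156 without, 71 were above 0 (median -0.013).

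NR2F2 differed from OTP in the reach of its pairs. Its 146 pairs of 0.5 to 2 Mb averaged 1.22 in DMSO, 1.46 in UNC1999 and 1.56 in UNC6852, and its 64 pairs of 100 to 500 kb averaged 1.32, 1.81 and 1.50. SOX14, a neural SOX gene, likewise had 80 pairs of 0.5 to 2 Mb at 1.35, 1.76 and 1.60. Calls in that class went from 22 in DMSO to 41 in UNC1999.

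The 12 lowest bins each held 21 to 31 pairs. They were picked by the difference itself, and a pair called in DMSO alone is listed through DMSO. A fall in such a pair partly follows from the listing. The lowest lay 280 kb from NR5A2 (chr1:199500001-200000000), the nuclear receptor gene nearest to its main bait. Its 22 pairs from 4 baits averaged 1.93 in DMSO, 0.78 in UNC1999 and 0.86 in UNC6852, with 14, 4 and 4 calls and 0 called in both DMSO and UNC1999. All 4 baits, which adjoin one another, were below 0. The difference was -0.62 in the 8 pairs of 100 to 500 kb and -1.93 in the 8 pairs beyond 2 Mb. The strongest pair, over 521 kb, scored 6.05 in DMSO, 2.39 in UNC1999 and 4.19 in UNC6852, and the next, over 752 kb, went the other way with 2.03, 6.47 and 0. The pair with the largest fall, over 123709 kb, scored 10.1, 0 and 0.

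HTR1E, a serotonin receptor gene (chr6:86500001-87000000), followed with 22 pairs at 2.09 in DMSO, 1.00 in UNC1999 and 1.35 in UNC6852, a difference of -1.09. Its short contacts were no lower: 5 pairs under 100 kb averaged 2.31, 2.53 and 2.48, and the strongest, over 75.8 kb from the promoter fragment, scored 7.64 in DMSO and 13.4 in UNC1999. The 10 pairs of 0.5 to 2 Mb averaged 2.38 in DMSO, 0.25 in UNC1999 and 0.79 in UNC6852, with 9, 0 and 1 calls. Most of these 10 are thus listed through DMSO, so whether distance matters at this locus was not tested. The start of chromosome 20 (chr20:1-500000), with the beta-defensin gene DEFB126 and TBC1D20, had 23 pairs at 2.33, 1.41 and 1.54. It had 20 calls in DMSO, 1 in UNC1999 and 5 in UNC6852. Its 11 pairs under 100 kb averaged 2.31 in DMSO, 2.15 in UNC1999 and 2.12 in UNC6852, with 10, 1 and 3 calls. As a score of 5 is 2.31 on this scale, those calls fell with a small change in score. The DEFB126 bait met a fragment 75.3 kb away with 8.92, 4.92 and 5.45.

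The next of the low bins held genes of varied function. MAPRE2, a microtubule-end protein, differed by -0.82 (21 pairs, 5 of 5 baits below 0). A bin near TPRA1 differed by -0.79 and TFPI2, a protease inhibitor, by -0.72 (25 pairs, 14 calls in DMSO and 2 in UNC1999). The 3 adjoining baits at the TFPI2 end differed by -0.74, -0.80 and -0.96. C17orf100 with SLC13A5 differed by -0.68, with -1.97 over odd and -0.068 over even baits. Its strongest pair, over 229 kb, went the other way, with 7.80 in DMSO and 12.4 in UNC1999. NDRG1 and GAB4 both differed by -0.68, MSI2, an RNA-binding protein of stem cells, by -0.65, and the bin near COL4A1 by -0.65. In that last bin 1 bait gave 14 of the 23 pairs, 3 baits were above 0 and 2 below, and the mean over baits was 0.30.

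DNMT3A, a de novo DNA methyltransferase, shared its bin with POMC (chr2:25000001-25500000). Its 31 pairs from 13 baits averaged 1.62 in DMSO, 0.97 in UNC1999 and 1.40 in UNC6852, with 16, 4 and 11 calls. The 3 pairs of the DNMT3A promoter fragment fell by 1.69, and the largest, over 56381 kb, went from 9.31 to 0. Both bait sets of the bin stood at -0.65. When only pairs called in UNC6852 were taken, whatever their scores in DMSO and UNC1999, the bins of HTR1E, TFPI2 and DNMT3A differed by -0.082, -0.043 and -0.018.

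Among the 12 highest bins, one lay at IRX1, an Iroquois homeobox gene (0.62, 20 pairs at 1.00 in DMSO and 1.61 in UNC1999). Another lay in ERC2, which holds all 4 of its baits (0.64, 22 pairs at 1.34 and 1.98), and 2 of its pairs touched an end of the neighbouring WNT5A, a secreted WNT ligand. The bin of WT1, the kidney and gonad regulator, had 40 pairs from 9 baits at 1.29 and 1.93 (0.63), of which 1 reached an end of the eye regulator PAX6. Its 3 baits inside WT1 differed by 2.35 (1 pair), 1.04 (3 pairs) and 2.26 (4 pairs), few of the 40. The bait with most pairs, 9, lay 54.7 kb from WT1. The bin stood at 1.09 over odd and 0.077 over even baits, and its 29 pairs of 100 to 500 kb differed by 0.20. Other high bins were TUT7 (0.80, 20 pairs), MCF2L (0.72, 24 pairs), B4GALNT3 (0.71, 22 pairs), ARHGEF28 (0.68, 20 pairs), ARF5 with GCC1 (0.63, 29 pairs), and bins near GRK3 (0.66) and GALR1 (0.63). The B4GALNT3 bin stood at 0.022 over odd and 1.29 over even baits. UNC6852 was above DMSO in each of the 12 and below UNC1999 in 11, the exception being the bin near GRK3 (0.91 in DMSO, 1.57 in UNC1999, 1.83 in UNC6852). Over all 2084 bins the centred difference UNC6852 minus DMSO was above 0 in 1274. The 12 bins were picked against the same DMSO profile, for being low there and high in UNC1999. Such a place for UNC6852 partly follows from that choice and is no separate support.

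**Figure D4:**
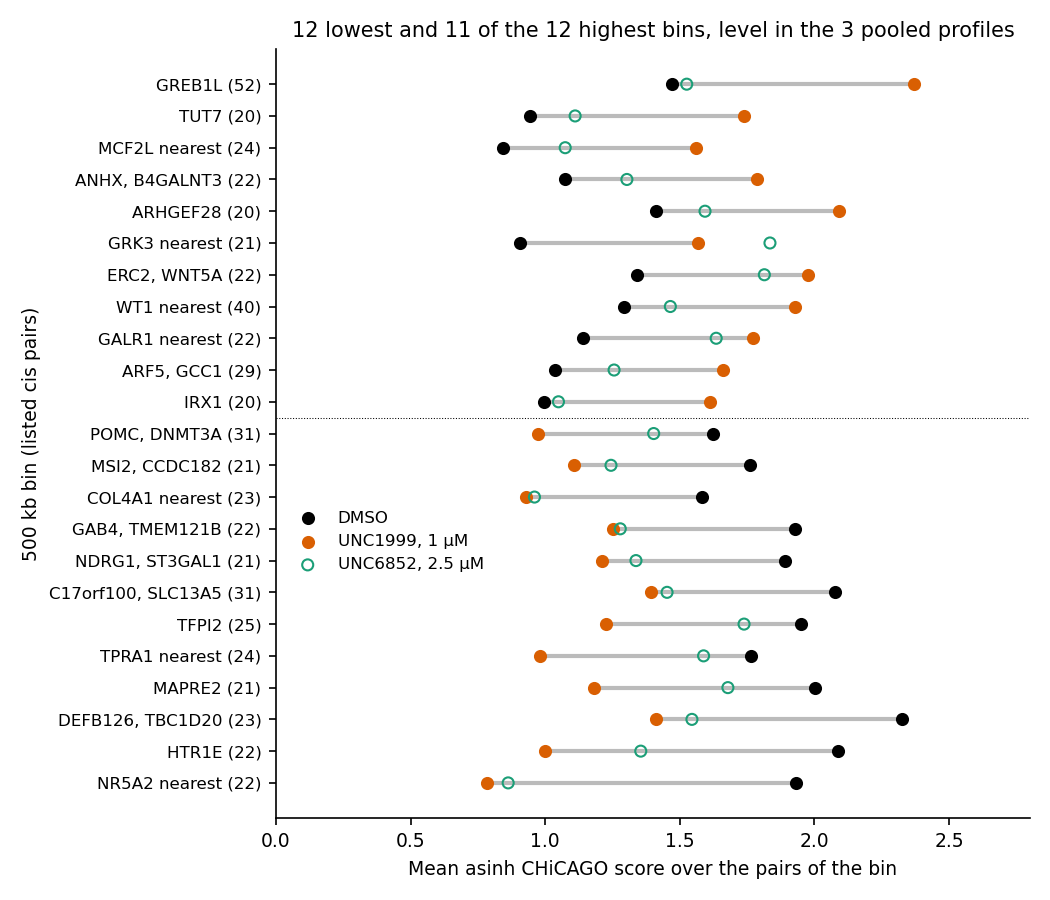
Mean asinh score (x) over the pairs of the 12 lowest bins and 11 of the 12 highest in DMSO (black), UNC1999 (orange) and UNC6852 (open green), labelled by up to 2 genes with ends at 2 or more of their pairs, inside the bin or not, or else by the gene nearest to the main bait, with the number of pairs in brackets; the bins were ranked by the distance from black to orange. GREB1L rises from 1.47 to 2.37 over 52 pairs, more than any other bin shown holds, and the bin nearest to NR5A2 falls from 1.93 to 0.78.

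Pairs with an end of a list gene, inside the bin or outside it, were present in 2 of the 40 lower bins (5.0%), those with DNMT3A and BMP3, and in 12 of the 42 higher bins (28.6%), against 17.8% of all bins. Among the 370 bins with a list gene, 174 were below 0 and 196 above. The bin that reached the BMP ligand gene BMP3 lies elsewhere on its chromosome, at ANXA3, and differed by -0.60 (35 pairs). The bin of INSM1 (chr20:20000001-20500000), a regulator of neuroendocrine fate, differed by 0.58 (24 pairs), with 0.80 over odd and 0.062 over even baits. Of its pairs, 3 reached an end of NKX2-2, a homeobox gene outside the bin. Its strongest pair, from a bait beside INSM1 to NKX2-2 over 1142 kb, went down from 14.4 in DMSO to 6.06 in UNC1999 (10.1 in UNC6852). The lowest bin of the homeobox list (chr5:50500001-51000000) held no end of a list gene itself: 10 of its 95 pairs reached an end of ISL1, a LIM homeobox gene of motor neurons and heart that lies outside it. The bin differed by -0.43 over 4 baits, with 56 calls in DMSO, 31 in UNC1999 and 52 in UNC6852. The other ends around ISL1 (chr5:51300001-51400000, 35 pairs) averaged 2.34, 1.94 and 2.07. The 2 strongest contacts of that bin, over 1038 and 1043 kb, moved the other way, from 13.8 to 20.6 and from 10.7 to 17.2.

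By gene, a pair was counted when either fragment lay within 1000 bp of an annotated gene end, and a gene needed 3 pairs. Of 4979 genes, 2532 lay below 0 and 2447 above, with a median of -0.0076. By 0.5 or more, 813 were lower (16.3%) and 784 higher (15.7%), the shares to set beside each list. Of 40 HOX genes measured, 23 lay above 0 and 17 below, with 0 lower and 2 higher by 0.5 (median 0.034). HOXA13 averaged 1.33 in DMSO and 1.91 in UNC1999 (10 pairs) and HOXD10 2.16 and 2.55 (12 pairs). HOXD8 averaged 2.22 and 1.84 (41 pairs) and HOXA6 3.02 and 2.58 (6 pairs). These 4 were the extremes of the list among genes with 5 or more pairs.

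The other homeobox regulators had 82 genes measured, 48 above 0 and 34 below (median 0.069). By 0.5, 14 were higher (17.1%) and 6 lower (7.3%), against 15.7% and 16.3% of all genes. EN1, of the midbrain and hindbrain, averaged 0.70 in DMSO and 2.05 in UNC1999 (5 pairs), and ONECUT1, of liver and pancreas, 1.07 and 2.13 (7 pairs). SIX2, of nephron progenitors, averaged 1.79 and 0 (6 pairs) with 2.64 in UNC6852, and GBX1 1.82 and 0.60 (5 pairs). Neural regulators had 17 of 32 above 0 (median 0.047, 3 past 0.5 in each direction). ZIC1 and ZIC4, neighbouring zinc-finger genes of the cerebellum, went opposite ways: ZIC1 averaged 0.96 and 1.66 (5 pairs), and ZIC4 1.99 and 1.40 (27 pairs, 17 calls in DMSO and 7 in UNC1999). SOX8 averaged 1.09 and 1.71 and EBF2 1.77 and 1.20 (5 pairs each).

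Mesoderm and endoderm regulators had 23 of 40 above 0 (median 0.042, 5 past 0.5 in each direction). TBX15, a T-box gene of skeletal development, averaged 0.93 in DMSO and 1.73 in UNC1999 (22 pairs, 5 and 12 calls). TBX20, of the heart, averaged 2.12 and 0.96 (7 pairs), and MESP2, of somite segmentation, 1.92 and 0.98 (9 pairs). Signalling genes had 30 of 53 above 0, with 9 higher and 5 lower by 0.5 (median 0.043). JAG1, a Notch ligand, averaged 1.32 and 2.21 (6 pairs), FGF9 1.83 and 0.18 (6 pairs), and DKK4, a WNT antagonist, 1.97 and 0.79 (5 pairs). Axon guidance genes had 15 of 22 above 0, with 3 higher (13.6%) and 5 lower (22.7%) by 0.5 (median 0.11). The ligand gene SLIT2 averaged 0.13 and 1.30 (6 pairs) and its relative SLIT1 2.15 and 1.55 (9 pairs). The ephrin gene EFNB3 averaged 1.29 and 1.90 (8 pairs) and the ephrin receptor gene EPHA2 2.43 and 0.69 (9 pairs).

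Genes of the Polycomb machinery were few. Of 9 PRC1 genes, 6 lay below 0 (median -0.26). By 0.5, 2 were lower (22.2%) and 0 higher, against 16.3% and 15.7% of all genes. BMI1, a PRC1 core subunit, averaged 1.78 in DMSO and 1.24 in UNC1999 (21 pairs), CBX8, a reader of H3K27 methylation, 1.98 and 1.45 (9 pairs), PCGF2 1.52 and 1.80 (11 pairs), and YAF2 1.53 and 1.82 (9 pairs). For PRC2, the inhibitor's own target EZH1 averaged 1.65 and 1.43 (6 pairs) and EPOP, an accessory subunit, 2.20 and 2.00 (34 pairs), while LCORL, whose locus encodes another, averaged 1.38 and 1.69 (11 pairs). The 3 genes of the Trithorax and demethylase list all lay below 0, from -0.37 at KMT2C to -0.038 at KMT2D (24 pairs).

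Markers of the cell states in this transition gave small lists with mixed signs. Of 7 naive genes, 4 lay below 0 (median -0.070), with TFCP2L1 at 1.55 in DMSO and 0.46 in UNC1999 (9 pairs) and KLF4 at 1.68 and 1.29 (14 pairs), while TBX3, also in the mesoderm and endoderm list, stood at 0.94 and 1.51 (8 pairs) and PRDM14 at 2.22 and 2.40 (8 pairs). Of 8 primed and general pluripotency genes, 5 lay above 0 (median 0.28), with FGFR1 at 1.93 and 2.50 (6 pairs), ETV5 at 1.30 and 1.87 (5 pairs), OTX2 at 2.09 and 2.20 (17 pairs) and TCF7L1 at 2.76 and 2.14 (9 pairs). Of 11 trophoblast and extraembryonic genes, 9 lay below 0 (median -0.088), with SOX17 at 2.01 and 2.14 (52 pairs), HAND1 at 1.77 and 1.85 (46 pairs), GATA2 at 1.97 and 1.35 (7 pairs) and LRP2 at 2.29 and 1.22 (5 pairs). Of 5 housekeeping genes, 3 lay below 0 (median -0.077), among them TFRC at 1.99 and 1.89 (12 pairs). With gene ends taken within 5000 bp, the medians of the HOX, naive and extraembryonic lists changed sign, to -0.058, 0.018 and 0.060.

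**Figure D5:**
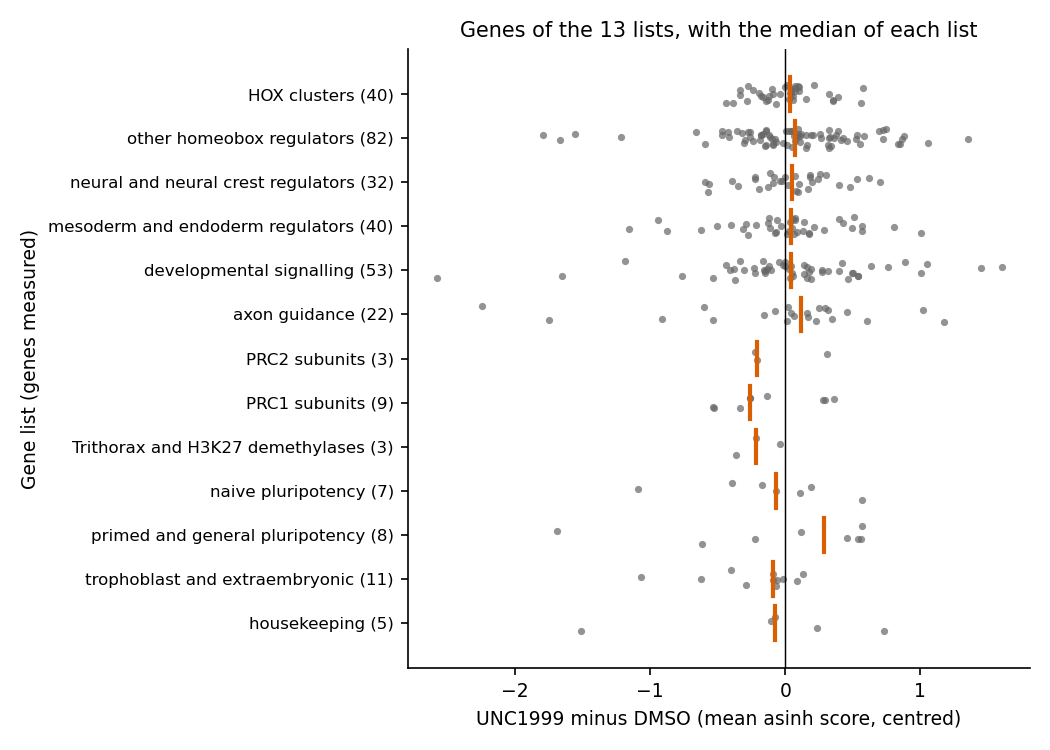
Difference UNC1999 minus DMSO per gene (x, mean asinh score over the pairs of a gene) for the genes of 13 lists (y, genes measured in brackets), with the median of each list as an orange bar. Genes lie on both sides of 0 in 12 of the lists, all 3 Trithorax and demethylase genes lie below it, and the HOX genes run from -0.44 to 0.57.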

How the data were processed

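Poised-enhancer capture Hi-C of HNES1 cells on day 5 was deposited as 1 column per condition. Each value is a CHiCAGO score pooled over the 15 libraries of a condition, per the labels, which name the column, and per the file headers. The build is GRCh38 per the submitters' processing notes; aligner, caller versions and read depth are not given in the sources used here, so no depth, floor or interval is given. Every listed pair reached a score of 5 in at least 1 of the 3 columns, and 12.5% of cis scores were 0 in DMSO and in UNC1999.

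From these, the asinh difference UNC1999 minus DMSO was centred on the median over cis pairs and averaged over 500 kb bins of bait midpoint with at least 20 cis pairs. No test was possible with 1 profile per condition. Bins named were the 12 lowest, the 12 highest, the 8 with most pairs and each list's lowest and highest; in a list the 2 lowest and 2 highest genes with at least 5 pairs were named, with a few further ones as stated; a few items that this rule selects are not reported here. A bin takes the genes whose ends lie within 1000 bp of its pairs, otherwise the gene nearest to its main bait. Genes came from RefSeq (GRCh38.p14), which gives no strand or exons here. The 13 lists held 525 symbols, 524 of them matched. Members, lists and limits were chosen with earlier results of these data known. The calculation was tested on simulated data. Alternatives were other scales, bins, minimum pairs, averages and pair classes. Python 3.11.15, numpy 2.4.6, pandas 2.3.3 and matplotlib 3.10.9 were used.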

Additional observations from a re-analysis of the deposited data

Results flagged for a closer look

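Pairs that join different chromosomes were in none of the comparisons above, and both treated profiles stood above DMSO among them: UNC1999 had 101879 calls there and UNC6852 96770, against 84499 in DMSO (1.21 times as many in UNC1999), among 281836 listed pairs. By 500 kb bin of the bait, UNC1999 had more such calls in 2761 of 4142 bins and fewer in 1092. Among the bins with the largest excess was that at GATA4, a regulator of heart and endoderm (118 calls in DMSO, 175 in UNC1999 and 165 in UNC6852). The bin nearest to DUSP22 had the largest deficit (117, 71 and 118). Depth is unknown and the libraries are pooled, so whether this exceeds the spread between replicates was not tested.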

How the results depend on the processing

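Counts of bins past 0.5, 40 lower and 42 higher with an SD over bins of 0.222, stayed within 1.5 times of these under 9 of the 15 alternatives chosen at the outset and moved further under the other 6, in either direction. They were 13 and 8 on the log2(score + 1) scale (SD 0.175), 24 and 27 in bins of 1 Mb (SD 0.209), and 134 and 134 with at least 10 pairs (SD 0.290). They were 5 and 7 with at least 40 pairs (SD 0.170) and 101 and 109 with means over baits (SD 0.301). Over pairs called in UNC6852, in bins with at least 10 of them, they were 9 and 11 (SD 0.173). Odd and even baits, added after the data were seen, were also taken in bins with at least 10 pairs. They gave 129 and 124 (SD 0.309) and 92 and 109 (SD 0.313), beside the 134 and 134 of all baits at that minimum. The SD alone was 0.2217 after quantile normalization, 0.2287 in bins of 250 kb, 0.2289 in shifted bins, 0.234 with medians over pairs, 0.2223 from 20 kb, 0.2100 up to 2 Mb, 0.2247 without the 243 baits with most pairs, 0.255 over pairs called in DMSO or UNC1999, and 0.238 with neighbouring other ends merged. Why the counts moved was not tested.

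Of named bins past 0.5, GREB1L ran from 0.69 to 1.09 over these alternatives. HTR1E ran from -1.29 to -0.082, TFPI2 from -1.07 to -0.043 and DNMT3A from -1.01 to -0.018, nearest 0 over pairs called in UNC6852. Signs reversed over pairs called in UNC6852 at the start of chromosome 20 (0.19), NDRG1 (0.076), MSI2 (0.029), BMP3 (0.37), IRX1 (-0.27) and the bin near GALR1 (-0.76). They also reversed at ARHGEF28 in bins of 1 Mb (-0.042) and shifted bins (-0.092), and near COL4A1 with means over baits (0.30) and pairs of up to 2 Mb (0.00149). The cause was not tested.

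Medians of the gene lists with gene ends within 5000 bp were -0.0582 for HOX clusters, 0.0764 for other homeobox regulators, 0.0978 for neural and neural crest regulators, 0.0106 for mesoderm and endoderm regulators, 0.0548 for developmental signalling, 0.0161 for axon guidance, -0.0871 for PRC2 subunits, -0.257 for PRC1 subunits, -0.0308 for Trithorax and H3K27 demethylases, 0.0182 for naive pluripotency, 0.139 for primed and general pluripotency, 0.0600 for trophoblast and extraembryonic and -0.0908 for housekeeping. On the log2(score + 1) scale they were 0.0257 for HOX clusters, 0.0520 for other homeobox regulators, 0.0331 for neural and neural crest regulators, 0.0374 for mesoderm and endoderm regulators, 0.0299 for developmental signalling, 0.0822 for axon guidance, -0.166 for PRC2 subunits, -0.195 for PRC1 subunits, -0.157 for Trithorax and H3K27 demethylases, -0.0569 for naive pluripotency, 0.226 for primed and general pluripotency, -0.0655 for trophoblast and extraembryonic and -0.0473 for housekeeping. After quantile normalization they were 0.0313 for HOX clusters, 0.0676 for other homeobox regulators, 0.0501 for neural and neural crest regulators, 0.0439 for mesoderm and endoderm regulators, 0.0472 for developmental signalling, 0.116 for axon guidance, -0.205 for PRC2 subunits, -0.255 for PRC1 subunits, -0.213 for Trithorax and H3K27 demethylases, -0.0692 for naive pluripotency, 0.285 for primed and general pluripotency, -0.0879 for trophoblast and extraembryonic and -0.0721 for housekeeping.

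No paired analysis was possible because the scores are pooled over replicates, and leaving out a replicate was not run for the same reason. Depth is unknown. A difference in a bin of 20 to 50 pairs rests on few contacts, many of them called in a single profile.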
